A study of Mus musculus with 22 samples.

Results

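The integrin subunits of mouse fibroblasts were followed through mRNA abundance, ribosome footprints on the coding sequence (CDS), translation efficiency and ribosome occupancy of the 5′ UTR in cells depleted of Denr. The set was defined by name as 9 genes, Itga3, Itga5, Itga6, Itga7, Itgav, Itgb1, Itgb3, Itgb4 and Itgb5, and its rule used no measured value. Of these, 8 were found among the 10516 genes quantified, namely 4 α subunits and 4 β subunits. Itga7 was not analysed here.

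NIH3T3 cells, an established mouse embryonic fibroblast line, had been transduced with lentiviral vectors that express an shRNA and selected with puromycin. Denr was targeted by Denr shRNA1 or by Denr shRNA2 (3 lysates each), and the controls carried a scramble shRNA (3 lysates) or an shRNA against Gfp (2 lysates). Every lysate gave a ribosome footprint library (RPF-seq) and a parallel RNA-seq library, 22 libraries in all, and all cells received cycloheximide shortly before lysis. The replicates were separate dishes, so the spread between them is that between cultures of one cell line. DENR is a non-canonical initiation factor that promotes reinitiation on the main CDS after translation of an upstream open reading frame (uORF), and the question put to each integrin mRNA was whether its abundance or translation moved when the factor was reduced.

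Libraries held between 10927303 and 21649878 reads on the CDS and 5′ UTR for RPF-seq and between 8514080 and 20109700 for RNA-seq, as recovered from the steps of the deposited values. Denr RNA was reduced by 77.5% with Denr shRNA1 and by 90.1% with Denr shRNA2 relative to the mean of the 5 controls, in accordance with the labels. All 10 fibroblast markers looked for were present, with a summed RNA level of 7506 to 9084 RPKM (reads per kilobase, scaled to library size) in controls and 7817 to 9690 RPKM in knockdown lysates. Of the other cell types, 2 of 8 epithelial markers (Cdh1 and Krt14), 1 of 6 endothelial (Cdh5), 1 of 7 immune (Itgb2) and 1 of 7 myogenic markers (Des) were quantified, with summed levels of at most 19.9, 1.10, 7.52 and 1.55 RPKM. No marker passed the test in RNA or CDS footprints, while 3 fibroblast markers, S100a4 (0.70), Thy1 (0.53) and Fn1 (0.50), rose on the log2 scale in footprints on the 5′ UTR relative to the CDS (limma adjusted p from 0.0842 to 0.0919), a readout in which 18.1% of all genes rose. In bulk lysates, fewer cells of a kind and less RNA per cell cannot be told apart.

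Integrins are transmembrane receptors built from one α and one β chain that tie the extracellular matrix to the actin cytoskeleton. The α chain largely sets which ligand is bound, and the β tail recruits talin, kindlin and the other adhesion proteins. Itgb1 pairs with many α chains, including those encoded by Itga3, Itga5 and Itga6, while Itgav pairs with several β chains, including those of Itgb1, Itgb3 and Itgb5, and Itgb4 pairs with Itga6.

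AUG-initiated uORFs were looked for first, because DENR promotes reinitiation after a uORF has been translated. Carrying one does not by itself mark an mRNA as dependent on DENR. On the annotated transcript with the longest CDS, 2 of the 8 members carried one, Itgb4 and Itgb5, whereas 5108 of 10242 genes with an annotated 5′ UTR (49.9%) did. For Itgb4, annotated isoforms with a 5′ UTR of 10 nt carried no AUG-initiated uORF, among them an isoform with an equally long CDS. The Itgb4 isoform whose CDS length was that behind the RPKM values carried 1 within its 5′ UTR. Another isoform of Itga3, Itga3-202, carried 2 within its 5′ UTR, and no complete annotated Itga3 isoform had the lengths behind its RPKM values. These are sequence matches in the annotation, not measured initiation sites. Near-cognate start codons were not searched. The start codons of the 3 uORFs of Itgb4 and Itgb5 are shown with their surroundings, because they mark where a ribosome could initiate upstream of these coding sequences. The main start codons of the 3 β subunits on which the results turn are shown as well. Each sequence reads 5′ to 3′ from the GENCODE annotation of GRCm38, with the ATG in capitals.
Itgb5 uORF 1: agcgaggaggATGgtggcggccgggcgcgg
Itgb5 uORF 2: agcgcccggcATGcggctgcggtccccggc
Itgb4 uORF: gcgcgcaggaATGcagtccgcctgactcac
Itgb5 main start: ggcgcgcatcATGccgcgggtgc
Itgb3 main start: ggcggacaggATGcgagcgcagt
Itgb1 main start: ctgcgaaaagATGaatttgcaac

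On Itgb5-201, whose 5′ UTR is 284 nt long, the first uORF began 150 nt from the cap, encoded 14 amino acids and ended 90 nt before the CDS. The second began at 215 nt, encoded 52 amino acids and overlapped the CDS out of the main frame. The Itgb4 uORF, on the transcript taken as that with the longest CDS, encoded 4 amino acids and lay wholly within the 5′ UTR. The genes lie on chromosome 16 (Itgb5, 33829665-33949338, plus strand), chromosome 11 (Itgb4, 115974709-116008412, and Itgb3, 104608000-104670476, both plus strand) and chromosome 8 (Itgb1, 128685654-128733200, plus strand) of GRCm38. For Itga5, Itgav, Itgb1 and Itgb3, the CDS and 5′ UTR lengths behind the RPKM values equalled those of one annotated isoform. For Itgb5, these lengths were 2477 and 296 nt, and Itgb5-201 matched neither. The 5′ UTR length was that of Itgb5-202, which also carried 1 uORF within the 5′ UTR and 1 overlapping the CDS.

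Integrin mRNAs spanned a wide range of abundance in control cells, and RPKM, being per length, allows the subunits to be ranked. Itgb1 led with 312 ± 6.65 RPKM of RNA (SD, n = 5), above 95.3% of all genes. Itgb5 (83.5 ± 6.67 RPKM), Itgav (80.7 ± 7.74 RPKM) and Itga6 (78.7 ± 5.34 RPKM) followed and did not differ beyond their spread. Itga5 stood at 42.6 ± 1.75 RPKM. Below it came Itgb3 with 11.1 ± 1.82 RPKM, Itga3 with 7.26 ± 0.932 RPKM and Itgb4 with 3.25 ± 0.461 RPKM, and the level of Itgb4 lay above only 8.4% of genes.

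The order changed at the level of ribosome footprints on the CDS. Itgb1 again led with 323 ± 24.2 RPKM (SD, n = 5), followed by Itgav with 127 ± 7.22 RPKM and Itga5 with 93.4 ± 7.46 RPKM. Itga6 had 52.7 ± 3.90 RPKM and Itgb5 28.3 ± 2.19 RPKM, so that Itgb5 dropped from the second to the fifth place. Itgb3 (13.6 ± 1.27 RPKM), Itga3 (9.25 ± 1.06 RPKM) and Itgb4 (3.86 ± 0.366 RPKM) again came last, and no 2 neighbours in this order had overlapping SDs.

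**Figure D1:**
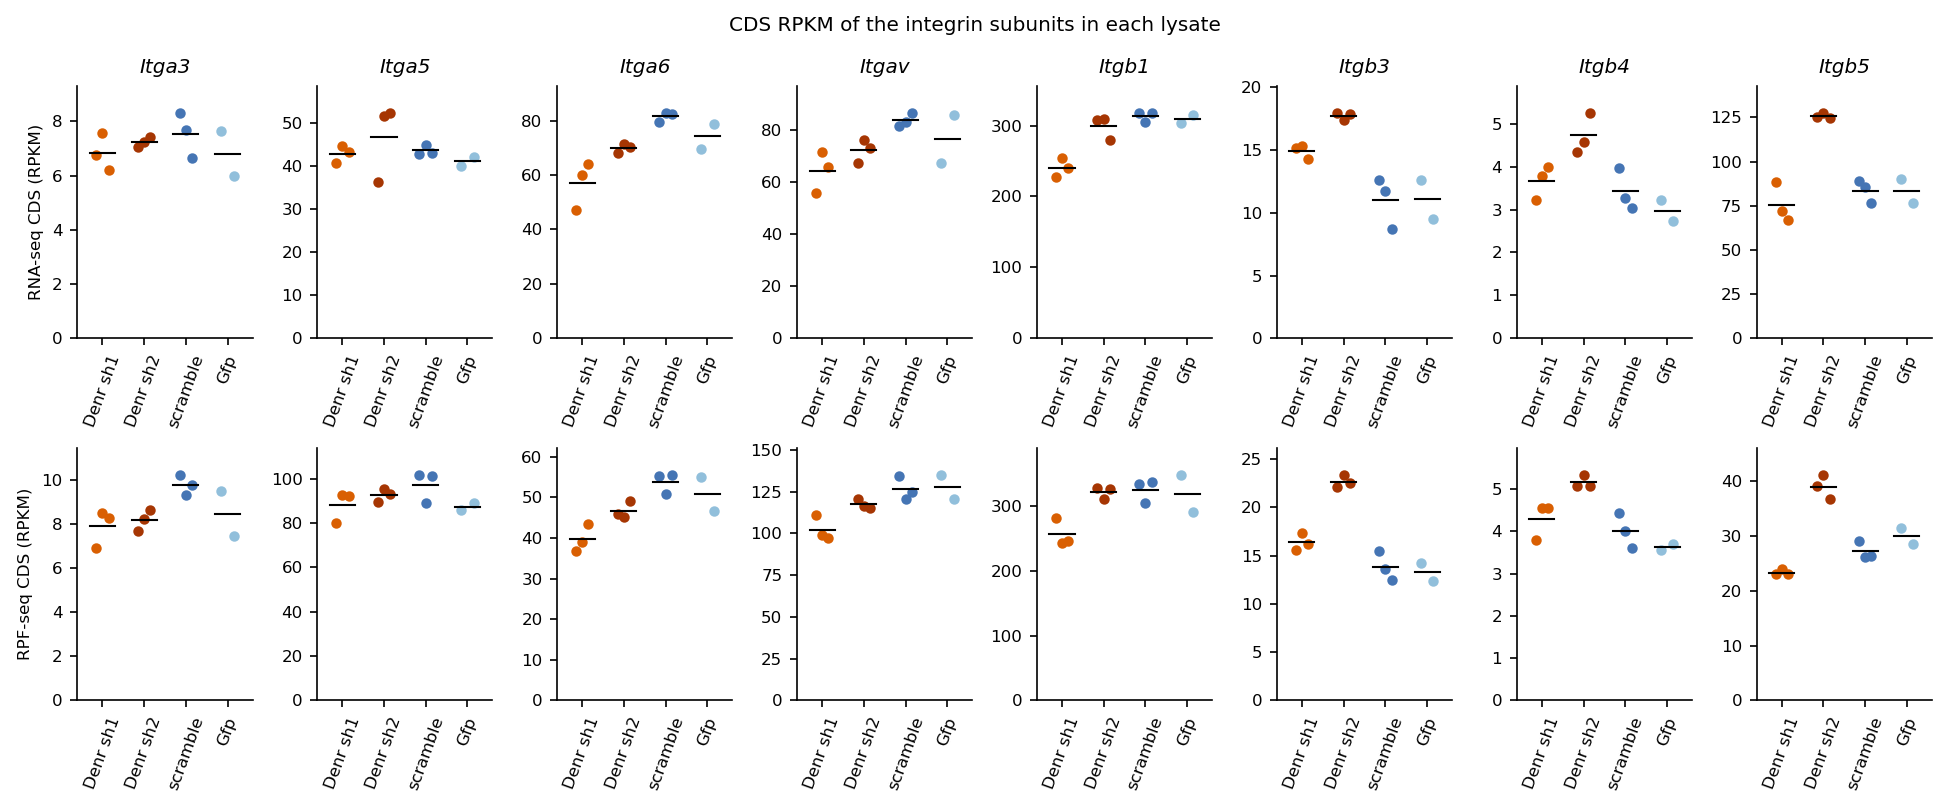
CDS RPKM of the 8 integrin subunits, RNA-seq above and RPF-seq below, with one point per lysate, a bar at the group mean, and Denr shRNA1 (Denr sh1), Denr shRNA2 (Denr sh2), scramble and Gfp shRNA from left to right. Itgb3 RNA lay at 14.3 to 18.0 RPKM in the 6 knockdown lysates and at 8.75 to 12.7 RPKM in the 5 controls, and Itgb5 differed between both Denr shRNAs in either assay.

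Translation efficiency (TE), the log2 ratio of footprint to RNA RPKM of the CDS in the same lysate, therefore differed widely between subunits in control cells. Itga5, the α chain of the fibronectin receptor, had a log2 TE of 1.13 ± 0.11 (SD, n = 5), above 94.6% of genes, and Itgav one of 0.66 ± 0.21. Itgb5 had the lowest of the members, −1.56 ± 0.11, above only 8.33% of genes. Itga6 lay at −0.58 ± 0.16, and Itga3, Itgb1, Itgb3 and Itgb4 lay between 0.05 and 0.35.

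Upon Denr depletion, the mRNA of a single member passed the test. Itgb3, which encodes the β chain of the vitronectin receptor, read 15.1, 15.3 and 14.3 RPKM with Denr shRNA1 and 18.0, 17.4 and 17.9 RPKM with Denr shRNA2. The controls read 12.7, 11.8 and 8.75 RPKM with scramble and 12.6 and 9.51 RPKM with Gfp shRNA. Every knockdown lysate thus lay above every control, and the groups did not overlap in 3.67% of all genes in RNA. The difference was 0.57 on the log2 scale (SE 0.11, 1.48-fold, limma on log2(RPKM + 0.1), adjusted p = 0.0217). Thus 1 of 8 members was called higher and 0 lower at a false discovery rate (FDR) of 0.1, against 2.68% and 0.865% of all 10516 genes called higher and lower. The call was kept when any one lysate was left out.

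The other members did not pass the test in RNA. Itga6 (−0.32, adjusted p = 0.135), Itgav (−0.24, adjusted p = 0.195) and Itgb1 (−0.22, adjusted p = 0.215) had lower means on the log2 scale, whereas Itgb4 (0.35, adjusted p = 0.198) and Itgb5 (0.22, adjusted p = 0.557) had higher means, with overlapping groups in each case. Itga3 and Itga5 differed by −0.04 and 0.06. The median change was 0.01 over the 8 members and 0.03 over all genes. Without Gfp shRNA replicate 1, Itga6 and Itgav passed (adjusted p = 0.084 and 0.0723), and without Denr shRNA1 replicate 1 Itgb4 did (adjusted p = 0.0933).

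Across the 11 lysates, the RNA levels of the members varied in sets. Itga6 varied with Itgav (Pearson r = 0.922) and Itgb1 (r = 0.876), and Itgb3 with Itgb4 (r = 0.837), while Itgb3 and Itgav ran in opposite directions (r = −0.612). The 3 genes most like Itgb3 were Cd300lb (r = 0.971), Gpc6 (r = 0.965) and Fam43a (r = 0.96). These values describe 11 libraries that share the knockdown contrast, and each library's scaling is common to all its genes.

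On the CDS, footprints of 3 members passed the test. Itgb3 read 15.6, 17.4 and 16.3 RPKM with Denr shRNA1 and 22.1, 23.4 and 22.6 RPKM with Denr shRNA2. The controls read 15.4, 13.6 and 12.5 RPKM with scramble and 14.3 and 12.4 RPKM with Gfp shRNA, so the groups again did not overlap, as was the case for 4.45% of all genes in footprints. Itgb3 was higher by 0.50 on the log2 scale (SE 0.11, 1.42-fold, limma adjusted p = 0.0258), and this call too was kept without any one lysate.

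Both α chains that were called moved down. Itga6, the laminin receptor chain, read 36.8, 39.0 and 43.4 RPKM with Denr shRNA1, 45.9, 45.2 and 49.1 RPKM with Denr shRNA2, 55.3, 50.9 and 55.5 RPKM with scramble and 55.1 and 46.6 RPKM with Gfp shRNA. Only Gfp shRNA replicate 2 fell within the range of the knockdown lysates. Its footprints fell by 0.29 on the log2 scale (SE 0.08, limma adjusted p = 0.0531). Without Denr shRNA1 replicate 2, scramble replicate 1 or scramble replicate 3, the adjusted p was 0.109, 0.132 and 0.111.

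Itgav, the vitronectin receptor α chain, read 111, 98.8 and 97.1 RPKM with Denr shRNA1, 121, 117 and 115 RPKM with Denr shRNA2, 134, 120 and 125 RPKM with scramble and 135 and 121 RPKM with Gfp shRNA. The groups met at their edges. Itgav footprints fell by 0.21 on the log2 scale (SE 0.07, limma adjusted p = 0.0896), close to the threshold. The call was lost without any one of Denr shRNA1 replicates 1, 2 and 3, Denr shRNA2 replicates 2 and 3, scramble replicates 1, 2 and 3, or Gfp shRNA replicate 1, with adjusted p up to 0.197.

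In CDS footprints, 1 of 8 members was thus called higher and 2 lower, where 5.47% and 4.55% of all genes were. Itgb4 (0.28, adjusted p = 0.117), Itga3 (−0.19, adjusted p = 0.208), Itgb1 (−0.17, adjusted p = 0.274), Itgb5 (0.09, adjusted p = 0.755) and Itga5 (−0.04, adjusted p = 0.712) were not called. Itga3 passed with scramble shRNA alone as control (−0.28, adjusted p = 0.0491) or without Gfp shRNA replicate 2 (−0.27, adjusted p = 0.0485), and Itgb4 passed with voom on recovered reads (adjusted p = 0.0782) or without Denr shRNA1 replicate 1 (adjusted p = 0.0601). The median was −0.11 over the members and 0.01 over all genes.

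**Figure D2:**
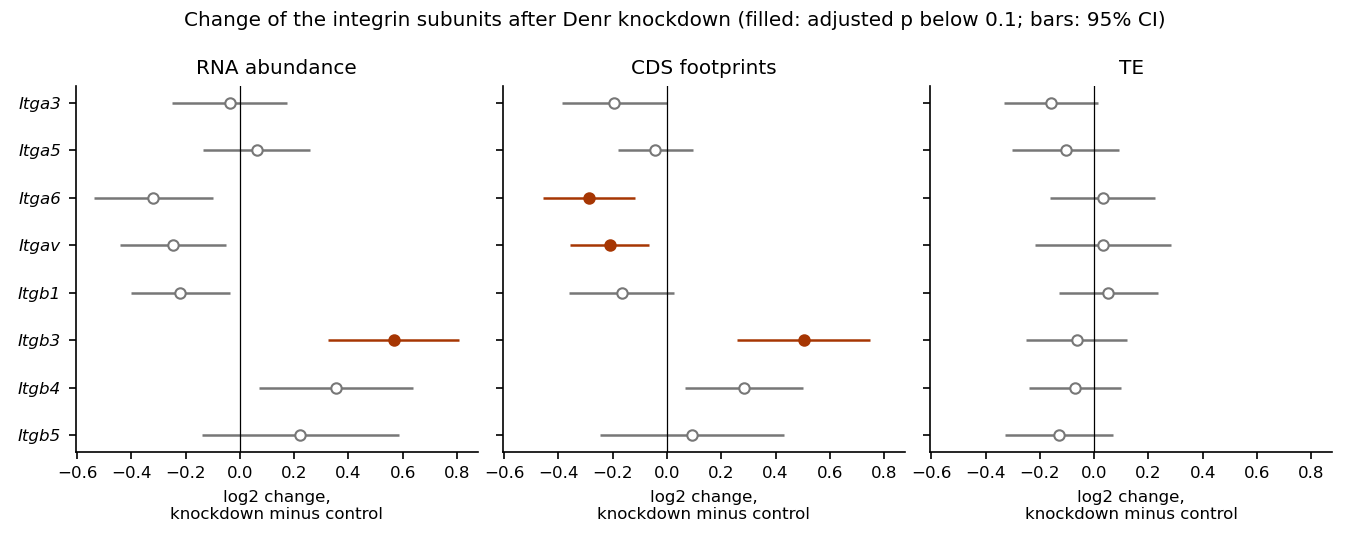
Log2 change of each integrin subunit, knockdown minus control, in RNA abundance, CDS footprints and TE, with 95% confidence intervals from limma and filled points where the adjusted p was below 0.1. Itgb3 stands to the right of 0 by 0.57 in RNA and 0.50 in footprints, Itga6 and Itgav stand to the left in footprints, and every TE interval includes 0.

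No member was called in TE. The changes ran from −0.16 (Itga3, 95% interval −0.33 to 0.01) to 0.05 (Itgb1, −0.13 to 0.23), and Itgb3, the member that rose in RNA and footprints, had −0.06 (−0.25 to 0.12). Itgb5, with both an internal and an overlapping uORF, had −0.13 (−0.33 to 0.07, limma adjusted p = 0.938), and Itgb4 had −0.07 (−0.24 to 0.10). Over all genes, limma called 0% higher and 0.475% lower, which are 0 and 50 genes, while 700 genes had an unadjusted p below 0.05. The intervals leave room for changes of the order of the limits given.

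Footprints on the 5′ UTR relative to those on the CDS rose for Itgb1. A gene entered this test with 20 or more 5′ UTR footprints in 9 or more of the 11 lysates, a condition met by 5175 genes and 4 members. In Itgb1, the 5′ UTR density was 6.98 ± 2.48% of the CDS density in controls (SD, n = 5) and 11.2 ± 3.42% in knockdown lysates (n = 6), on 74 to 162 reads a library. The groups overlapped, with controls at 4.16 to 10.7% and knockdown lysates at 6.99 to 15.9%. The log2 change was 0.69 (SE 0.26, limma adjusted p = 0.0926).

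Itgav had 27.9 ± 6.30% in controls and 37.8 ± 4.64% in knockdown lysates (0.46, adjusted p = 0.102), and passed with a pseudocount of 1 RPKM (adjusted p = 0.0936) or without scramble replicate 3 (0.0979) or Gfp shRNA replicate 2 (0.0573). Itga3 (0.27, adjusted p = 0.221) and Itgb5 (0.24, adjusted p = 0.445) were not called either. So 1 of 4 members was called higher and 0 lower, in a readout where 18.1% of all genes were called higher and 0.0386% lower and where the median change of all genes was 0.33. The Itgb1 call was lost without Denr shRNA1 replicate 1, 2 or 3, Denr shRNA2 replicate 2, scramble replicate 1 or 3, or Gfp shRNA replicate 1 (adjusted p = 0.118 to 0.200), and when 5′ UTR footprints were set against 5′ UTR RNA (0.54, adjusted p = 0.240).

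Among the members, the 5′ UTR of Itgb5 was the most occupied relative to its CDS. Its footprint density was 142 ± 51.7% of the CDS density in controls (SD, n = 5), above 81.6% of the 5175 genes, while the same ratio in RNA-seq was 41.2 ± 2.71%. Itga3 had 101 ± 19.5% in footprints and 109 ± 10.7% in RNA. Itgb1 showed the reverse of Itgb5, with 6.98% in footprints and 32.1 ± 8.05% in RNA. Over all covered genes, the median of this ratio was 55.3% in footprints and 51.3% in RNA.

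Itga5, Itga6 and Itgb3 had too few 5′ UTR reads to be tested. Itga5 had 42 5′ UTR footprints and Itgb3 9 footprints over all 11 RPF-seq libraries. Itga6 had 6 to 26 5′ UTR footprints a library. The 5′ UTR of Itgb4 was listed at 0 in all 22 libraries, while its CDS had 133 to 496 RNA-seq reads a library. Which Itgb4 isoform the cells expressed was not tested. The length behind such values cannot be recovered, and the Itgb4 uORF could not be examined.

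**Figure D3:**
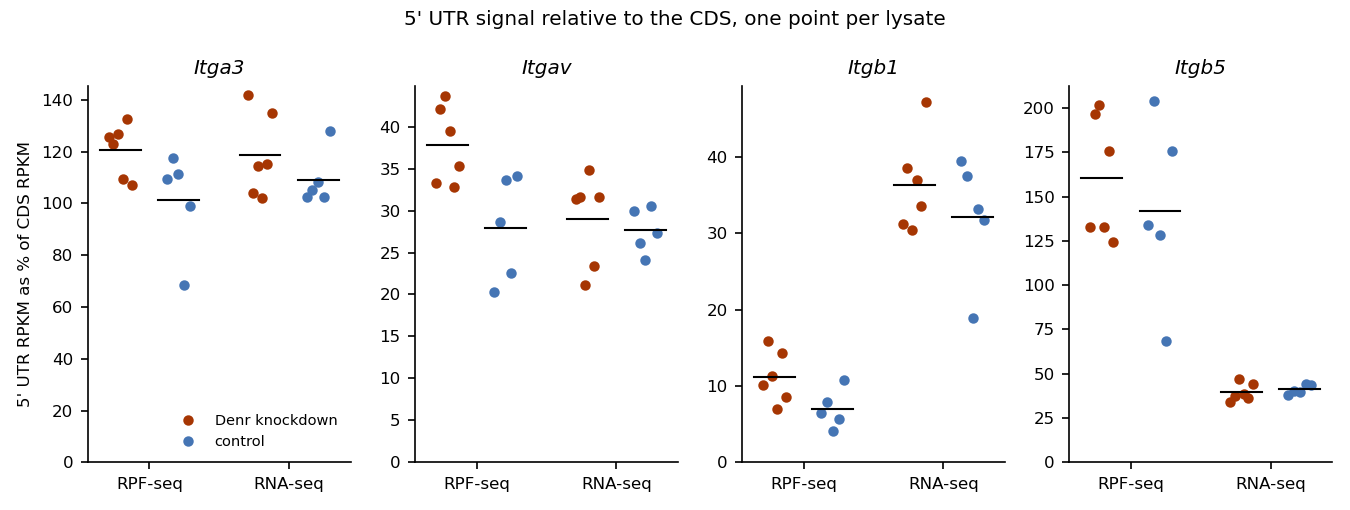
5′ UTR RPKM as a percentage of CDS RPKM for the 4 members with enough 5′ UTR reads, with one point per lysate, a bar at the group mean, RPF-seq on the left and RNA-seq on the right of each panel. Itgb5 has more footprint density on the 5′ UTR than RNA density would give, 142% against 41.2% in controls, and Itgb1 has less, 6.98% against 32.1%.

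Both Denr shRNAs were then set apart in a fit with 4 groups, because they reduced Denr to different levels. These contrasts share the 5 control lysates. Their control reference was the mean of the scramble and Gfp shRNA means, so each Gfp lysate weighed more than each scramble lysate. With Denr shRNA1, 2 of 8 members were called in RNA, Itga6 (−0.46, limma adjusted p = 0.0335) and Itgb1 (−0.37, adjusted p = 0.0196), where 4.63% of genes were. Itgb3 RNA was not called with Denr shRNA1 (0.44, adjusted p = 0.107). With Denr shRNA2, 3 members were called, all higher, namely Itgb3 (0.69, adjusted p = 0.0209), Itgb5 (0.59, adjusted p = 0.0139) and Itgb4 (0.55, adjusted p = 0.0523), where 4.7% of genes were. Without Denr shRNA2 replicate 2 or 3, Itgb3 (adjusted p = 0.108 and 0.126) and Itgb4 (0.197 and 0.273) were not called, and Itgb4 was lost also without scramble replicate 2 (0.112) or Gfp shRNA replicate 2 (0.155). Itga6 was lost without Gfp shRNA replicate 2 (adjusted p = 0.124).

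In CDS footprints, 5 of 8 members were called with Denr shRNA1, against 14.5% of genes. Itga6 (−0.40), Itgb1 (−0.33), Itgav (−0.31) and Itgb5 (−0.29) were lower and Itgb3 (0.28) was higher, with limma adjusted p from 0.00631 to 0.0537. With Denr shRNA2, 3 members were called, against 15.9% of genes, and all were higher, Itgb3 by 0.74, Itgb5 by 0.45 and Itgb4 by 0.43 (adjusted p from 0.000306 to 0.0213). The Itgb3 call with Denr shRNA1 was lost without Denr shRNA1 replicate 2 or 3 or Gfp shRNA replicate 2 (adjusted p = 0.211, 0.121 and 0.143), and that of Itgb4 with Denr shRNA2 without Denr shRNA2 replicate 2 (adjusted p = 0.1004).

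Itgb5, a β partner of Itgav, showed the widest gap between both shRNAs. Its RNA read 88.2, 71.8 and 67.1 RPKM with Denr shRNA1 and 125, 127 and 124 RPKM with Denr shRNA2, with controls from 76.5 to 90.3 RPKM. Its footprints read 23.0, 24.0 and 23.0 RPKM with Denr shRNA1 and 39.1, 41.1 and 36.7 RPKM with Denr shRNA2, with controls from 26.1 to 31.5 RPKM. Footprints thus lay below all controls with one shRNA and above all controls with the other, and these calls were kept without any one lysate.

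Tested directly, Denr shRNA2 exceeded Denr shRNA1 by 0.74 in Itgb5 RNA (SE 0.11, limma adjusted p = 0.00993), the single member called there, where 2.06% of genes were. In footprints, 3 members were called, against 9.69% of genes, all higher with Denr shRNA2. These were Itgb5 by 0.74 (SE 0.07, adjusted p = 0.000144), Itgb3 by 0.46 (SE 0.09, adjusted p = 0.00946) and Itgb1 by 0.33 (SE 0.08, adjusted p = 0.0362). Itgb1 footprints read 281, 242 and 245 RPKM with Denr shRNA1 and 328, 310 and 325 RPKM with Denr shRNA2, the latter within the control range of 290.3 to 348 RPKM. The Itgb1 call was lost without Denr shRNA1 replicate 2 or 3 or Denr shRNA2 replicate 1 or 3 (adjusted p = 0.131, 0.115, 0.110 and 0.114).

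The comparison of both control shRNAs gave the background of such contrasts. Between Gfp and scramble shRNA, limma called 0 of 8 members in RNA and 0 in footprints, where 0.704% and 8.48% of genes were called. In TE, 0 members were called in any of the 4 contrasts, in which 0.0475% (Denr shRNA1), 0.399% (Denr shRNA2), 0% (Denr shRNA2 against Denr shRNA1) and 0% (Gfp against scramble shRNA) of genes were.

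**Figure D4:**
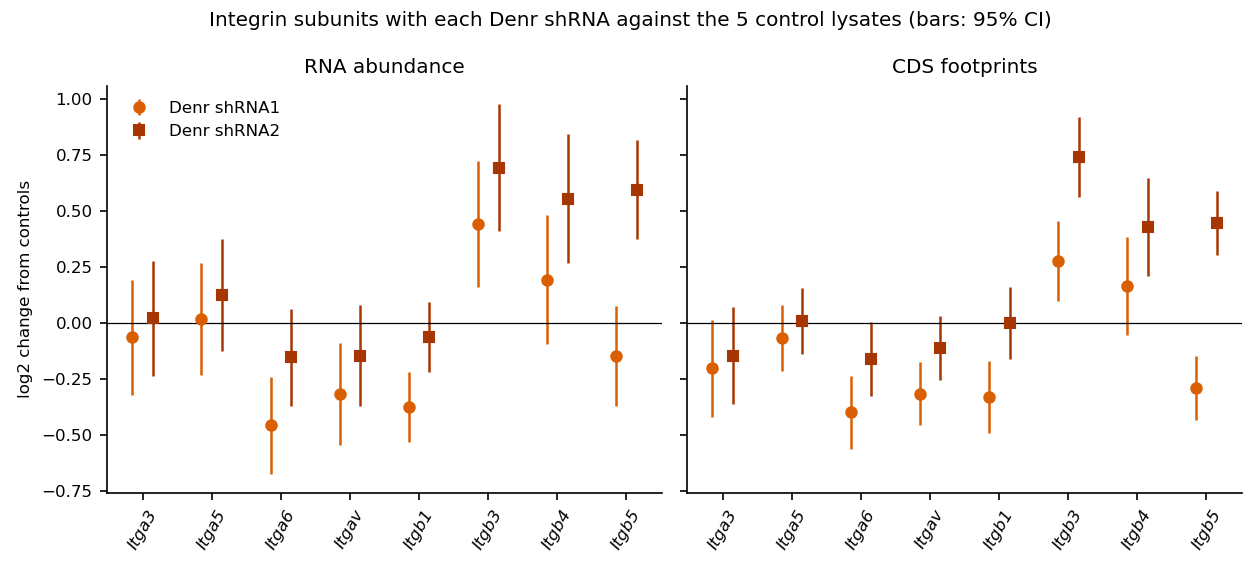
Log2 change of each integrin subunit from the mean of the scramble and Gfp shRNA means with Denr shRNA1 (circles) and Denr shRNA2 (squares). RNA and CDS footprints are shown, with 95% confidence intervals from the fit with 4 groups. Itgb5 footprints stand at −0.29 with Denr shRNA1 and at 0.45 with Denr shRNA2, whereas Itgb3 stands above 0 with both, at 0.28 and 0.74.

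Shares within a library do not depend on its scaling. The sums cover the 4 α and 4 β members only, without other subunits such as Itgb7, whose control footprints averaged 29.8 RPKM. Itgb1 dominated the footprints of the β members. Its share of their summed RPKM was 87.5 ± 0.793% in controls (SD, n = 5) and 84.02 ± 1.76% in knockdown lysates (n = 6). The difference was −3.52 percentage points (exact two-sided permutation test over 462 splits, p = 0.00649). Counting 8 such tests, the adjusted p was 0.0231. In RNA the share went from 76.1 ± 1.88% to 69.3 ± 3.52% (exact p = 0.00866, adjusted p = 0.0231). The level of Itgb1 itself was called neither in RNA nor in footprints between knockdown and control lysates. Its footprint share was 85.3% with Denr shRNA1 and 82.8% with Denr shRNA2. In the fit with 4 groups, Itgb1 footprints differed from controls by −0.33 and 0.00056 on the log2 scale. The share of Itgb3 in the footprints of the β members was 3.70% in controls, 5.50% with Denr shRNA1 and 5.85% with Denr shRNA2. That of Itgb5 was 7.70%, 7.80% and 10.1%.

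Among the α members, Itga5 took 33.1 ± 1.76% of the footprints in controls and 36.0 ± 2.08% in knockdown lysates (exact two-sided permutation p = 0.0303, adjusted p = 0.0606). In RNA its share rose from 20.4 ± 0.791% to 24.4 ± 2.31% (exact p = 0.00866, adjusted p = 0.0231), while its own RNA level was not called. The share of Itgav differed by −1.36 points in footprints (exact p = 0.327). Itgb1 over the sum of the 4 α members differed by −0.002 on the log2 scale (exact p = 0.974). The footprint result for Itga5 passed neither with scramble shRNA alone as control (exact p = 0.119) nor without scramble replicate 2 (exact p = 0.0571) or Gfp shRNA replicate 1 (exact p = 0.0762).

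Of 18 other integrin subunits, 6 were quantified, Itga1, Itga2b, Itgae, Itgb2, Itgb7 and Itgb8, and 0 of these were called in RNA, footprints or TE. Over all genes, 2.68% were called higher and 0.865% lower in RNA, 5.47% and 4.55% in footprints, and 0% and 0.475% in TE. Itgb7 was the most abundant, with a log2 RNA level of 4.71 ± 0.17 in controls. Itgb2 RNA was higher in every knockdown lysate than in every control (0.34, limma adjusted p = 0.151) but was not called. The groups did not overlap in 3.67% of all genes in RNA. Itgb8, a partner of Itgav, differed by 0.62 in footprints between Denr shRNA2 and Denr shRNA1 (adjusted p = 0.0173), where 9.69% of genes were called. Between Denr shRNA2 and controls it differed by 0.38 (adjusted p = 0.0656), where 15.9% of genes were called. However, it differed by 0.48 also between Gfp and scramble shRNA (adjusted p = 0.0937), where 8.48% were.

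Genes that work with integrins were taken from 3 lists, whose counts stand against 2.68% of all genes higher and 0.865% lower in RNA and 5.47% higher and 4.55% lower in footprints. Among 26 quantified ligands and matrix proteins, 1 rose and 1 fell in RNA, and 3 rose and 3 fell in footprints. In footprints, Ccn2, a matricellular ligand, rose by 0.68 (SE 0.13), Spp1, which encodes osteopontin, by 0.54 (SE 0.12), and the basement membrane collagen Col4a1 by 0.29 (SE 0.08). The basement membrane linker Nid1 fell by 0.86 (SE 0.11), and the laminin chains Lamb1 and Lama4 fell by 0.42 and 0.35 (limma adjusted p from 0.00198 to 0.0531 for all 6). In RNA, Col4a1 rose by 0.32 and Nid1 fell by 0.79. The median change of the list was 0.12 in both readouts.

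Among 41 quantified proteins of the adhesion complex, 1 rose and 1 fell in RNA, and 3 rose and 5 fell in footprints. Parvb (0.25), Csrp1 (0.18) and Pdlim7 (0.15) rose in footprints. The actin crosslinker Flna fell by 0.48 and vinculin, encoded by Vcl, fell by 0.40 (limma adjusted p = 0.0124 and 0.0125). In RNA, Parvb rose by 0.33 (adjusted p = 0.0314). The median footprint change of the list was −0.04.

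Among 33 quantified regulators, 1 rose and 1 fell in RNA, and 1 rose and 5 fell in footprints. Itgb1bp1, which binds the Itgb1 tail, fell by 0.34 in both readouts (limma adjusted p = 0.049 and 0.0177). Ccm2 was the single gene of the 3 lists called in TE, where it fell by 0.80 (SE 0.13, limma adjusted p = 0.0382), while its RNA rose by 0.49 and its footprints fell by 0.31. Cav1 rose by 0.27 and Plaur, the urokinase receptor, fell by 0.31 in footprints. In relative 5′ UTR translation, 7 of 23 tested ligands, 10 of 26 adhesion proteins and 5 of 28 regulators rose and 0 fell, against 18.1% and 0.0386% of all genes, so that the count of the regulators was near the background. The median changes were 0.45, 0.42 and 0.33, and 0.33 over all genes. Called ligands included Lamb1 (0.84), the fibrillin gene Fbn1 (0.59) and Nid1 (0.57). Called adhesion proteins included Ilk (0.74), Tns3 (0.68) and Kank2 (0.65), and called regulators included Ccm2 (0.68), Raph1 (0.66) and Sharpin (0.45), with limma adjusted p from 0.035 to 0.0914 for these 9 genes.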

How the data were processed

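RPF-seq and RNA-seq libraries of 11 NIH3T3 lysates were analysed. The authors trimmed and size-selected reads, aligned them with Bowtie2 and TopHat to GRCm38, scaled each assay by its upper quartile and deposited RPKM values for the CDS and 5′ UTR of each gene, after removing genes with few reads. All 231352 CDS values and 228800 finite 5′ UTR values lay within 0.001 read (or 1e-08 of the count, where larger) of a whole multiple of what 1 read is worth, which gave reads per gene and library totals. Gene names were matched for 10505 of 10516 identifiers, and uORFs and start codons were read from the GENCODE annotation of GRCm38.

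From the RPKM values, log2(RPKM + 0.1) was fitted for all genes with limma 3.58.1 in R 4.3.3 (moderated with a mean trend), 6 knockdown against 5 control lysates, or in 4 groups, with Benjamini-Hochberg adjustment over all genes and FDR 0.1. The fits were tried on simulated libraries with known changes. These had no effects of single shRNAs or replicate numbers, so control of the FDR under such effects was not tested. TE was footprints over RNA per lysate, and relative 5′ UTR translation was 5′ UTR over CDS footprints. Shares were compared by exact permutation tests. All members, the other integrin subunits and, from each list, at most 3 called genes per direction and readout by size of change are named, except 1 gene of the adhesion complex list, which is not reported here. The members and lists were chosen with earlier results of these data known. Alternatives were other pseudocounts, a filter on low RPKM, median centring, a replicate block, scramble shRNA alone as control, reads in place of RPKM and each lysate left out. Between replicates of one group, R2 of log2 values was 0.956 to 0.994 in RNA-seq and 0.981 to 0.992 in RPF-seq.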

Additional observations from a re-analysis of the deposited data

Results flagged for a closer look

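Denr shRNA2 and Denr shRNA1 differed in 4 results on members by the direct limma contrast. Itgb5 differed by 0.74 in RNA and by 0.74 in CDS footprints, Itgb3 by 0.46 in CDS footprints, and Itgb1 by 0.33 in CDS footprints, always higher with Denr shRNA2.

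In 5 of 56 groups of lysates looked at, one lysate stood far from the rest, where chance alone flags about 1 in 20 groups. Gfp shRNA replicate 1 had the lowest control RNA of Itga6 (log2 6.12, next 6.30) and of Itgav (log2 6.08, next 6.35). Denr shRNA1 replicate 1 had the lowest knockdown footprints of Itga5 (log2 6.32, next 6.49). In TE, scramble replicate 3 was highest among controls for Itga3 (0.55, next 0.32), and Denr shRNA2 replicate 3 was lowest among knockdown lysates for Itgb4 (−0.046, next 0.19).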

How the results depend on the processing

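Itgb3 kept its call in RNA and in CDS footprints under all alternatives to the comparison of 6 against 5 lysates, and 0 members were called in TE under any of them. With scramble shRNA alone as control, 940 genes were called in RNA, 2651 in footprints, 10 in TE and 514 in relative 5′ UTR translation, against 373, 1053, 50 and 939, the Itga5 footprint share differed by 2.16 points, and the log2 ratio of Itgb1 to the α chains turned to 0.012. Without single lysates, 139 to 734 genes were called in RNA (members 1 to 3), 484 to 1946 in footprints (members 1 to 4), 14 to 72 in TE and 38 to 1773 in relative 5′ UTR translation (members 0 to 2). Relative 5′ UTR translation gave 2 members with a pseudocount of 1 RPKM, 0 members and 131 genes with a 5′ UTR RPKM of at least 1, and 0 members and 4 genes over 5′ UTR RNA. The change of sign was confined to values near 0: Itga3 RNA without scramble replicate 1 (0.014), Itga6 TE without Denr shRNA1 replicate 1 (−0.0072) or Gfp shRNA replicate 2 (−0.014), and Itgav TE without the same lysates (−0.027 and −0.007). Over all lysates left out, these 3 changes ran from −0.10 to 0.014, from −0.014 to 0.091 and from −0.027 to 0.12. Left out one at a time, lysates moved the Itga5 share from 2.19 to 3.35 points and the Itgb1 ratio from −0.027 to 0.032. The causes were not tested.

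In the fit with 4 groups, whose alternatives were chosen after seeing the data, leaving out 1 lysate gave 1 to 4 members in RNA with Denr shRNA1, 1 to 3 in RNA and 2 to 3 in footprints with Denr shRNA2, and 2 to 4 in footprints between both. A Gfp group of 1 lysate was assumed to vary like the others. A pseudocount of 1 RPKM gave 2 members in RNA between both Denr shRNAs, and median centring gave 5 in footprints.

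Deviations from the group means correlated between lysates of the same replicate number (mean r of 0.326 in RNA, 0.18 in footprints, 0.226 in TE). Other pairs had −0.163, −0.0894 and −0.113. Deviations cancel within a group, so these values follow largely from the first and are no separate comparison. Of 15 pairs with the same number, 10, 13 and 10, not all, had r over 0.1. The labels give the number no shared origin, so the block was not taken as the design. With the replicate block, 3 members (Itgb3, and Itga6 and Itgav with adjusted p = 0.0652 and 0.0708) and 1003 genes were called in RNA, 1940 genes in footprints, and 2 members (Itgb1, and Itgav with adjusted p = 0.0421) and 2418 genes in relative 5′ UTR translation. In the fit with 4 groups, the block gave 4 members in RNA with Denr shRNA1, and 3 in RNA and 5 in footprints between both Denr shRNAs.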
